A study of Mus musculus with 6 samples.

Results

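The Lif, gp130 and Stat3 pathway was followed through 10 of the 24288 gene symbols measured by RNA-seq in mouse day 2 epiblast-like cells (EpiLCs). The genes were chosen as named parts of the pathway, with earlier results of these data known, so counts over them are descriptions. They encode the cytokine Lif, the receptor chains Lifr and gp130 (gene Il6st), the kinases Jak1 and Jak2, the transcription factor Stat3, the inhibitors Socs2 and Socs3, and the kinases Pim1 and Pim3. Each gene was read from its most highly counted entry, and all 10 passed the filter on low values. Positions given with an entry are those of the GENCODE transcript with the same RefSeq identifier on mm10.

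EpiLCs were compared between a wild-type line (WT, n = 3) and a line lacking Smad2 and Smad3 (Smad2/3 DKO, n = 3), the intracellular transducers of Nodal and activin signals, to ask how gene expression depends on Smad2/3 as ESCs leave the naive state. WT cells were the CCE line. DKO cells were the clone KT15.1F6, with the Smad2 tm1Rob allele on both chromosomes and a CRISPR nickase deletion around the first exon of Smad3. Both were of 129/Sv//Ev background. Both lines were kept as ESCs in N2B27 medium with 1 µM PD0325091, 3 µM CHIR99021 and 1000 U/ml LIF. They were then moved for 48 h onto fibronectin in N2B27 with 12 ng/ml Fgf2, 20 ng/ml Activin A and 1% KSR, a medium for which no LIF is listed. The 3 libraries of a genotype came from separate differentiations of 1 line, so a difference between the lines cannot be told apart from loss of Smad2/3, and the spread measured is that between differentiations. Because these are bulk samples, a change in the share of cells that express a gene cannot be told apart from a change in RNA per cell.

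In ESCs, LIF binds Lifr, which pairs with gp130, a chain shared by the receptors of the interleukin-6 family. The bound Jak kinases phosphorylate Stat3, which enters the nucleus and activates genes that help to hold mouse ESCs in the naive state. Socs3 is a well known Stat3 target that in turn blocks signalling at gp130, and Pim1 and Pim3 are serine/threonine kinases often induced by cytokine signals through Stat factors. What follows concerns RNA levels, and phosphorylation of Stat3 was not measured.

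Recovered reads numbered 57644143 to 63046034 per library over 1 entry per gene. Smad3 reads were 799, 846 and 873 normalized reads in WT and 21.5, 30.5 and 18.7 in DKO libraries (log2 fold change -5.12 ± 0.13, SE, limma, adjusted p = 7.91e-22). Smad2 was not reduced (log2 fold change 0.16 ± 0.03, limma, adjusted p = 2.27e-05), but reads over the whole gene body do not test the targeted exon. All 6 EpiLC markers (Fgf5, Otx2, Pou3f1, Dnmt3b, Pou5f1, Sox2) were present in every library, and their summed level in DKO was 0.953 times that in WT. That sum is mostly Dnmt3b (70389.7 normalized reads in WT), and 3 of the 6 were called, Fgf5 (3235 to 798) and Pou3f1 (6064 to 3948) as lower and Sox2 (2798 to 7741) as higher. Other marker sets moved with genotype, and their counts stand beside 7.35% of all genes called higher and 8.04% called lower. The 5 naive ESC markers summed to 3076 to 3350 normalized reads in WT and to 5138 to 5343 in DKO, with 3 of 5 called higher. The 5 trophoblast markers summed to 22.8 to 32.5 in WT and to 174 to 188 in DKO, with 4 of 4 tested called higher. The 5 primitive endoderm markers summed to 80.6 to 92.8 in WT and to 154 to 169 in DKO, with 2 of 4 tested called higher. Pdgfra (36.8 to 83.3) made up much of this rise. Gata6, Gata4 and Sox7 also had higher means in DKO, whereas Sox17 had a lower mean (16.4 to 10.9) and was not called. The 5 fibroblast markers summed to 296 to 331 in WT and to 214 to 250 in DKO, with 1 of 5 called lower. That gene, Col1a2 (174 to 82.7), carried most of the fall. Col1a1 also had a lower mean in DKO, whereas Col3a1, Thy1 and Pdgfrb had higher means. The 5 blood and macrophage markers summed to 630 to 644 in WT and to 369 to 443 in DKO, nearly all of it Cd68, and Hbb-bs had 0 reads in every library. The part of these shifts in the results below was not tested.

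The 300-base promoter windows of the 3 genes called below are shown because Stat factors bind short palindromes, of which Socs3 carries one near its start. Sequences are from RefSeq (GRCm38.p6, the mm10 assembly) and run 5′ to 3′ on the gene's own strand, from 250 bases before to 50 bases after the annotated start. Capitals mark TTCNNNGAA, where N is any base. The motif reads the same on both strands, and its stricter form TTCCNGGAA is contained in it. Lifr has 2 windows, at the starts of its entries NM_001113386 and NM_013584.
Socs3, chr11:117969317-117969616, minus strand: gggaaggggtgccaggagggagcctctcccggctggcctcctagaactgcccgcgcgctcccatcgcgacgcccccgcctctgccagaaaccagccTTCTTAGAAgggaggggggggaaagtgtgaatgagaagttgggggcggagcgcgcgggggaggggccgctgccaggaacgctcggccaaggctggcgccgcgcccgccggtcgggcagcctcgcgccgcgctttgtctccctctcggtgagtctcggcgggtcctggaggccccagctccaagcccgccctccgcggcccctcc
Il6st, chr13:112463820-112464119, plus strand: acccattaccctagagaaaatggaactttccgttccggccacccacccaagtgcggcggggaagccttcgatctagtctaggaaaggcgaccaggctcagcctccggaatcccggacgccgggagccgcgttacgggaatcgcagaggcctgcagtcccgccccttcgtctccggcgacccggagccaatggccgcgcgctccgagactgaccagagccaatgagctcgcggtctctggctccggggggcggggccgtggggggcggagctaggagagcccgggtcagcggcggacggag
Lifr (start of NM_001113386), chr15:7129322-7129621, plus strand: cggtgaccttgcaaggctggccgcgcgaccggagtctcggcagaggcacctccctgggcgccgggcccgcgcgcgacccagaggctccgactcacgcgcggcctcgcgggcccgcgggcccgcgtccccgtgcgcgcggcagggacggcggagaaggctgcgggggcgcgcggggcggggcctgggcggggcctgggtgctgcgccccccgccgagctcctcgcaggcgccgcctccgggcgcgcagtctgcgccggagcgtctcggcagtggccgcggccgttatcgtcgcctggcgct
Lifr (start of NM_013584), chr15:7140292-7140591, plus strand: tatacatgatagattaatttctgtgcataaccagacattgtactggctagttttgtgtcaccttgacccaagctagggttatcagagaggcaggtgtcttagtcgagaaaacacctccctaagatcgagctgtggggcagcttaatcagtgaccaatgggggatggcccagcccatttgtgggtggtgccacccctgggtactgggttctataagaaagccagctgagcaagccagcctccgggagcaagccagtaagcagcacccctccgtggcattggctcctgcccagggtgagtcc
The Socs3 window holds TTCTTAGAA, which begins 154 bases before the annotated start on which the window was set. That start lies upstream of the start of the GENCODE transcript used for the Socs3 position. The RefSeq gene Socs3 reaches further upstream, to 117970336, so the match lies within the span of that gene. The other 3 windows hold no match. Windows were present for 9 of the 10 genes (not Socs2), and over all 11 of their windows the Socs3 match was the only one. Among 32851 promoter windows of the same length in the mouse annotation, 8.3% hold TTCNNNGAA and 1.15% hold TTCCNGGAA. A match in letters is a description and was not tested as a binding site.

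Lifr, Il6st and Socs3 were more highly expressed in Smad2/3 DKO than in WT EpiLCs, by 2.40 to 3.16 times, whereas none of the other 7 genes passed both limits for a call. A gene was called, here and above, when its Benjamini-Hochberg adjusted p in limma lay under 0.05 over 17038 genes tested and its fold change exceeded 1.5. Of all genes tested, 15.4% were called, 7.35% as higher and 8.04% as lower in DKO, beside 3 of the 10 pathway genes, all of them higher. On adjusted p alone 8 of the 10 passed, 5 higher and 3 lower, beside 53.4% of all genes (26.9% higher and 26.5% lower). WT and DKO values did not overlap for the same number, 8 of 10, beside 59.0% of all genes. In 5 of these DKO lay above WT (29.7% of all genes) and in 3 below (29.3%). A limma test against 1.5-fold itself called Lifr, Il6st and Socs3 too, beside 6.54% of all genes, and so did edgeR (15.5%) and DESeq2 (14.5%) on recovered reads. The median log2 fold change was 0.13 over the 10 genes and 0.00012 over all genes tested.

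**Figure D1:**
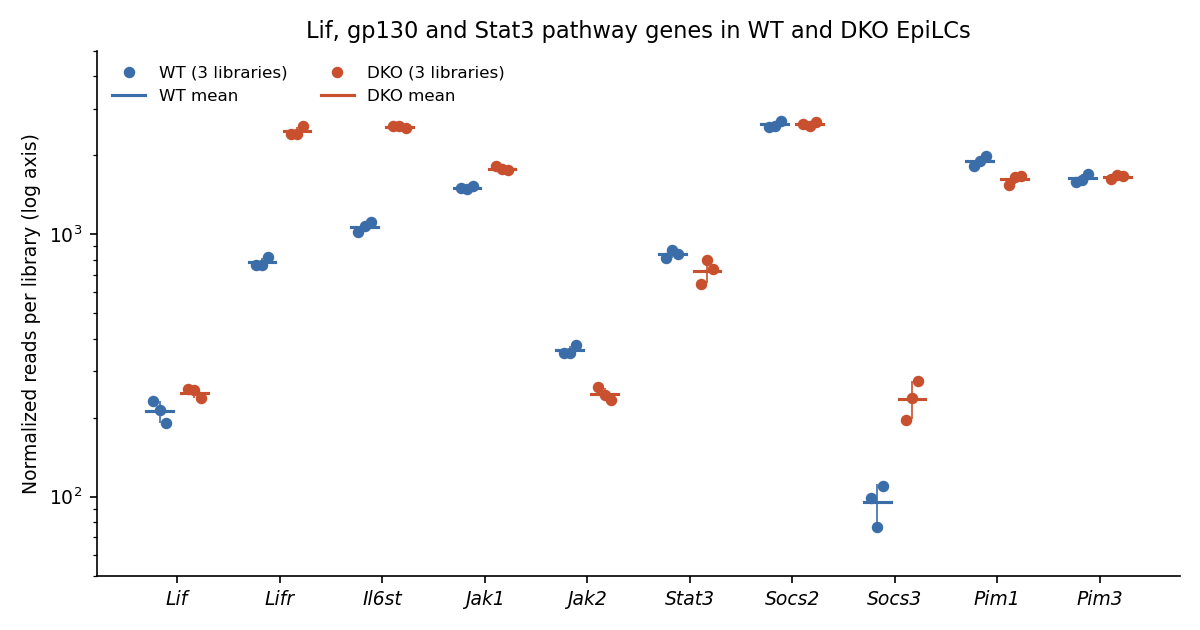
Normalized reads (log axis) of the 10 pathway genes in 3 WT (blue) and 3 Smad2/3 DKO (orange) EpiLC libraries, with horizontal lines at group means and vertical lines for 1 SD either way. Lifr, Il6st and Socs3 lie clearly higher in DKO, Jak2 lies lower, and Socs2 and Pim3 overlap.

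Lif, the ligand that gives the pathway its name, differed little between the genotypes and was not called. Its entry (NM_008501, chromosome 11, 4257557 to 4272514, plus strand) held 231, 214 and 190.4 normalized reads in WT libraries. In DKO libraries it held 256, 254 and 237. All DKO values lay above all WT values, but only narrowly. The difference was 1.18-fold (log2 fold change 0.24 ± 0.08, SE, limma, adjusted p = 0.021), which is under the limit for a call. Without WT replicate 3, DKO replicate 1 or DKO replicate 2 the adjusted p was 0.136, 0.0618 and 0.0662, so Lif no longer counted among the 8 genes that passed on adjusted p alone. A shorter Lif entry (NM_001039537) that starts within the gene carried nearly all of these reads. The reads found only in the longer entry numbered 0 to 11 per library, so the part of the gene before the shorter entry held few or no reads in either genotype.

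Lifr, the chain that binds LIF directly, showed the largest difference of the 10 genes. Its most counted entry (NM_013584, chromosome 15, 7140542 to 7191218, plus strand) held 761, 763 and 818 normalized reads in WT libraries. In DKO libraries it held 2412, 2414 and 2585. The lowest DKO library was far above the highest WT library, and the spread within each genotype was small. The mean was 781 ± 32.5 in WT and 2470.1 ± 99.5 in DKO (SD, n = 3), a 3.16-fold rise (log2 fold change 1.66 ± 0.04, SE, limma, adjusted p = 1.01e-21). Ordered by log2 fold change, Lifr stood at place 162 from the top of 17038 genes.

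Both Lifr entries of the table were higher in DKO. The second, NM_001113386, starts upstream of NM_013584 (7129572 against 7140542, from GENCODE transcripts with these identifiers) and ends before it (7185343 against 7191218). It held 344, 326 and 385 normalized reads in WT libraries and 984, 1014 and 1043 in DKO libraries, a ratio of 2.89. Most of the span is shared, so the 2 values are not independent. Subtracting this entry from NM_013584, which leaves the reads past its end less those before the later start, gave 429 ± 10.4 normalized reads in WT and 1456 ± 75.3 in DKO (SD, n = 3), a ratio of 3.39 that was not tested. By these ends, more reads came from the last stretch of Lifr than from its first in both genotypes.

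Il6st, which encodes gp130, also rose. Its single entry (NM_010560, chromosome 13, 112464070 to 112510086, plus strand) held 1021, 1076 and 1109.9 normalized reads in WT libraries. In DKO libraries it held 2573, 2587 and 2533. The DKO libraries differed from each other by little, and none came near the WT range. The mean went from 1069 ± 45.0 to 2564 ± 28.1 (SD, n = 3), a 2.40-fold rise (log2 fold change 1.26 ± 0.04, SE, limma, adjusted p = 4.78e-20). Il6st stood at place 332 from the top by log2 fold change. No annotated gene overlaps the Lifr or Il6st entries.

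The ratio of the 2 receptor chains was higher in each DKO library than in any WT library. Within each library, the level of Lifr per kilobase of gene body relative to that of Il6st was 0.677, 0.644 and 0.669 in WT and 0.851, 0.847 and 0.927 in DKO. The mean ratio was 0.664 ± 0.0175 in WT and 0.875 ± 0.0448 in DKO (SD, n = 3, exact permutation test, two-sided, p = 0.1, the smallest that 3 against 3 libraries allow, and 0.1 after Benjamini-Hochberg adjustment over 3 ratios). The 3 ratios, this one and those of Jak1 to Jak2 and Pim1 to Pim3, were chosen after the values were seen.

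Jak1 and Jak2, kinases bound to gp130 receptors, lay on opposite sides of WT, and neither was called. A further kinase, Tyk2, is described with the wider pathway below. Jak1 (NM_146145, chromosome 4, 101152367 to 101265282, minus strand) held 1496, 1492 and 1526 normalized reads in WT libraries and 1813, 1765 and 1759 in DKO libraries. Jak2 (NM_001048177, chromosome 19, 29251828 to 29313080, plus strand) held 352, 353 and 379 in WT libraries and 262, 243 and 233 in DKO libraries. For each kinase the groups were fully apart. Jak1 was 1.18-fold higher (log2 fold change 0.24 ± 0.04, SE, limma, adjusted p = 2.42e-06). Jak2 was 1.47-fold lower (log2 fold change -0.55 ± 0.07, limma, adjusted p = 3.68e-07), just inside the 1.5-fold limit, and it was called when DKO replicate 1 was left out (log2 fold change -0.60). Per kilobase of gene body, Jak1 exceeded Jak2 by 2.26 ± 0.0647 times in WT and by 3.93 ± 0.166 times in DKO (SD, n = 3, exact permutation test, two-sided, p = 0.1, the smallest possible, adjusted 0.1 over 3 ratios). The ratio was higher in all 3 DKO libraries than in any WT library.

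Stat3 was slightly lower in DKO and was not called. Its entry (NM_011486, chromosome 11, 100885098 to 100939404, minus strand) held 810.2, 874 and 838 normalized reads in WT libraries and 645, 796 and 734 in DKO libraries. DKO replicate 1 was the lowest and DKO replicate 2 came close to the WT range, so the DKO group was more spread (coefficient of variation 10.5%) than WT (3.78%). The log2 fold change was -0.22 ± 0.06 (SE, limma, adjusted p = 0.00291), a 1.16-fold difference, and it ranged from -0.29 to -0.14 when 1 library was left out. The 3 Stat3 entries of the table hold identical values and do not separate its spliced forms. By the GENCODE transcript used for its position, the end of Stat3 overlaps that of Stat5a by 72 bases. The RefSeq gene Stat3 ends at 100886806, clear of Stat5a, which reaches 100885169.

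Of the inhibitors Socs3 and Socs2, Socs3 was called and Socs2 was not. Socs3 (NM_007707, chromosome 11, 117966079 to 117969186, minus strand) held 98.9, 76.8 and 109 normalized reads in WT libraries. In DKO libraries it held 196, 238 and 275. Although Socs3 was the most variable of the 10 genes, with coefficients of variation of 17.5% in WT and 16.7% in DKO, the lowest DKO library lay well above the highest WT library. The mean went from 95.0 ± 16.6 to 237 ± 39.4 (SD, n = 3), a 2.49-fold rise (log2 fold change 1.31 ± 0.12, SE, limma, adjusted p = 1.43e-09) at place 303 from the top. These values rest on 135 to 531 reads per library. The log2 fold change ranged from 1.17 to 1.44 when 1 library was left out and stayed called in each case.

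Socs2, better known for restraining growth hormone receptor signals, overlapped between the genotypes. It (NM_007706, chromosome 10, 95411490 to 95416857, minus strand) held 2566, 2591 and 2704 normalized reads in WT libraries and 2630.0, 2595 and 2669 in DKO libraries. Its log2 fold change was 0.01 ± 0.03 (SE, limma, adjusted p = 0.883). The 4 Socs2 entries gave DKO to WT ratios of 1.00 each. Its direction depended on which library was left out, with log2 values from -0.0084 to 0.029.

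Pim1 and Pim3 were abundant in both genotypes and neither was called. Pim1 (NM_008842, chromosome 17, 29490753 to 29496112, plus strand) held 1814, 1906 and 1989 normalized reads in WT libraries and 1542, 1649.6 and 1666 in DKO libraries. Pim3 (NM_145478, chromosome 15, 88862186 to 88865726, plus strand) held 1586, 1616 and 1696 in WT libraries and 1626, 1680.0 and 1669 in DKO libraries. Pim1 was lower in all 3 DKO libraries, while the Pim3 groups overlapped. Their log2 fold changes were -0.23 ± 0.04 (SE, limma, adjusted p = 2.20e-05) and 0.02 ± 0.04 (limma, adjusted p = 0.627). Relative to Pim3 per kilobase, Pim1 measured 0.770 ± 0.0128 in WT and 0.645 ± 0.0169 in DKO (SD, n = 3, exact permutation test, two-sided, p = 0.1, the smallest possible, adjusted 0.1 over 3 ratios). An antisense transcript, Gm26885, overlaps the start of Pim1 by 1173 bases in the GENCODE annotation. Since the use of strand in counting was not given in the sources used here, reads of the 5 genes that overlap another gene (Jak1, Stat3, Socs2, Pim1 and Pim3) cannot be fully assigned.

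**Figure D2:**
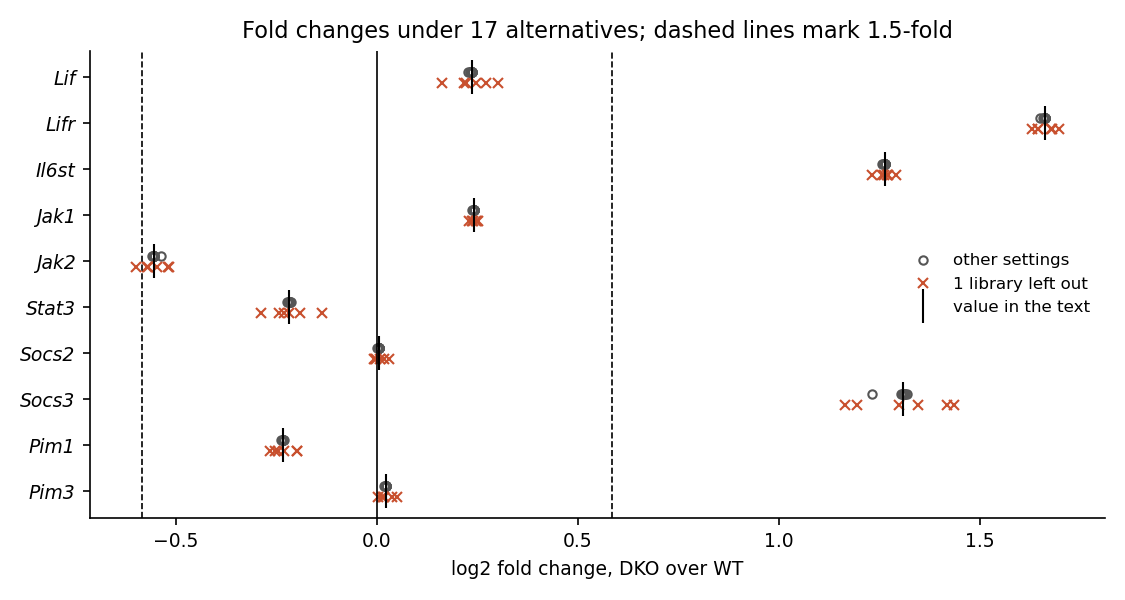
Log2 fold changes (DKO over WT) of the 10 pathway genes as given in the text (black ticks), after leaving out 1 library (orange crosses) and under the other settings (open circles), with dashed lines at 1.5-fold. Lifr, Il6st and Socs3 stay beyond 1.5-fold under all 17 alternatives, some of which leave the fold change as it was. Jak2 crosses the line when DKO replicate 1 is left out.

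Levels of the 10 genes were ordered per kilobase of gene body, introns included, within each genotype. In WT, Socs2 (488 normalized reads per kilobase) and Pim3 (461) overlapped at the top, followed by Pim1 (355). A wide step separated them from Socs3 (30.6) and Il6st (23.2). Stat3 (15.5), Lifr (15.4), Lif (14.2) and Jak1 (13.3) followed, and each of these overlapped its neighbour in the order. Jak2 (5.90) came last and apart. In DKO, Lifr (48.7) moved clear of Lif (16.7) to stand next below Il6st (55.7), and Socs3 reached 76.1. Lif and Jak1 (15.8) still overlapped, whereas Stat3 (13.4) now lay below both.

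The order depended on the length used. Per kilobase of merged exons, Socs2 stayed first in both genotypes (1179 in WT and 1184 in DKO), but Socs3 came last in WT (37.2) and Jak1 moved up to 4th place (307). Lifr per kilobase of exons went from 230.2 ± 9.58 in WT to 728 ± 29.3 in DKO (SD, n = 3), which placed it 2nd in DKO, above Pim3 (683) and Pim1 (600.2). Il6st stood at 123 in WT and 295.5 in DKO, so by these exon lengths Lifr lay above Il6st in both genotypes, unlike by gene body. The exon length used was 3.392 kb for Lifr and 8.678 kb for Il6st. The RefSeq gene Lifr reaches 7197489, past the end of the transcript used (7191218). Its exon length may therefore be too short, and its places by exons, above Il6st and 2nd in DKO, too high. Pim1 (705) and Pim3 (673) overlapped in WT by exons. The length sets the size of the within-library ratios but not their fold between genotypes. Lengths were taken from GENCODE transcripts that carry the same RefSeq identifier, whose ends can differ from those of the counted entries.

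**Figure D3:**
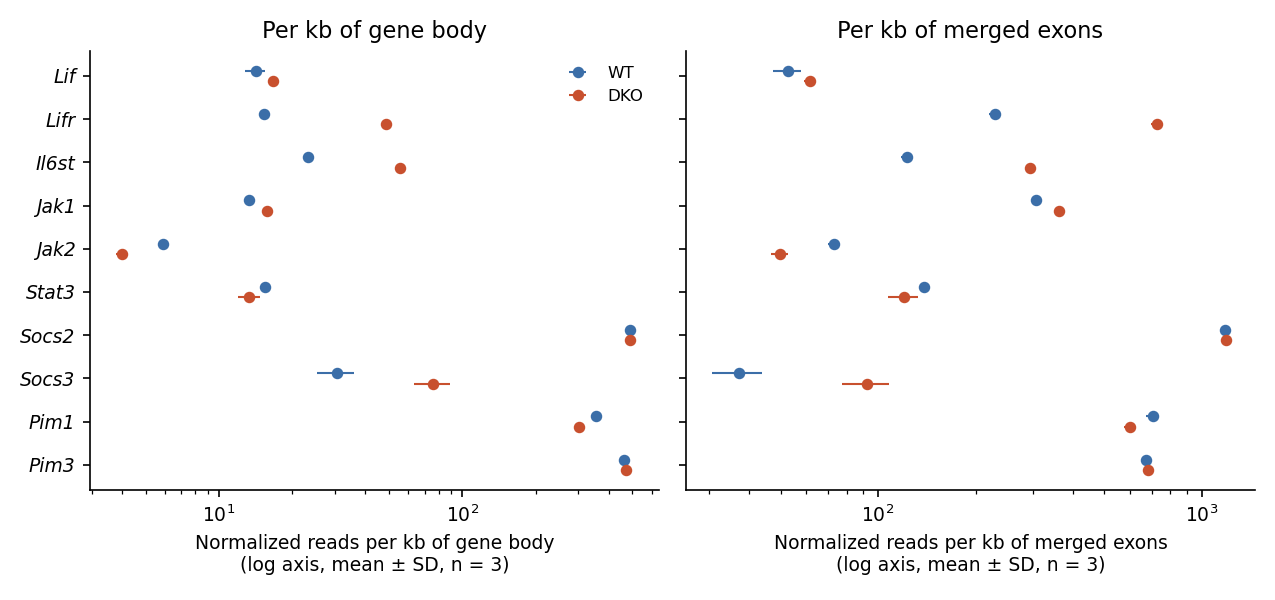
Levels of the 10 genes in WT (blue) and Smad2/3 DKO (orange) EpiLCs as normalized reads per kilobase of gene body (left) and of merged exons (right), on log axes, mean ± SD (n = 3). Socs2, Pim1 and Pim3 lead per kilobase of gene body, and Lifr, Il6st and Socs3 shift to the right in DKO in both panels.

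The wider pathway was followed through 48 further genes, grouped by role, of which 47 were tested and 8 called, 5 higher and 3 lower. That is 17% of the 47, near the 15.4% of all genes. Their median log2 fold change was -0.0014. On adjusted p alone 22 of the 47 passed (46.8%, beside 53.4% of all genes), 13 higher and 9 lower. These shares do not set the list apart from other genes. Osmr, the chain that pairs with gp130 to bind oncostatin M, had at most 2 reads in any library and was not tested. None of the 5 other receptor chains tested (Il6ra, Il11ra1, Cntfr, Il27ra, Lepr) was called by limma, edgeR or DESeq2, and none had an unadjusted limma p under 0.05. With 15.4% of all genes called, 0 of 5 is no result about these chains. Their log2 fold changes ran from -0.26 to 0.12, beside 1.66 for Lifr and 1.26 for Il6st.

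Among the 7 other ligands of the family, Il11 alone was called, as lower in DKO (14.3% of the list, beside 15.4% of all genes called). Il11, an interleukin that signals through gp130 with its own receptor chain, held 88.1, 59.8 and 87.5 normalized reads in WT libraries and 19.9, 32.0 and 31.6 in DKO libraries. The groups were far apart (log2 fold change -1.47 ± 0.20, SE, limma, adjusted p = 5.41e-07). None of the 5 other kinases and adaptors or of the 6 other Stat factors was called by limma, edgeR or DESeq2. With 15.4% of all genes called, 0 of 5 and 0 of 6 are no result about these genes. In each list 3 genes had an unadjusted limma p under 0.05 and also passed on adjusted p (60% and 50%, beside 53.4% of all genes). Among the kinases, Tyk2 was 1.46-fold higher in DKO, just inside the 1.5-fold limit. It held 1548, 1607 and 1649 normalized reads in WT libraries and 2283, 2348 and 2372 in DKO libraries (log2 fold change 0.54 ± 0.04, limma, adjusted p = 8.56e-13). Of the 13 other inhibitors, Socs1, which blocks Jak kinases, was called as lower, whereas Socs3 was higher. Socs1 was the only call of the 13 (7.69%, beside 15.4% of all genes). Socs1 held 181, 192 and 188 normalized reads in WT libraries and 93.6, 79.9 and 72.6 in DKO libraries, with no overlap (log2 fold change -1.19 ± 0.11, limma, adjusted p = 1.07e-09).

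Genes known to respond to Stat3 gave 6 of the 8 calls, from 11 tested (5 higher and 1 lower), beside 7.35% of all genes called higher and 8.04% called lower. The list was written with earlier results of these data known, so its count is no test. Tfcp2l1, a transcription factor downstream of LIF in naive ESCs, held 432, 377 and 400.0 normalized reads in WT libraries and 672, 737 and 687 in DKO libraries (log2 fold change 0.79 ± 0.06, SE, limma, adjusted p = 1.65e-11). Klf4, a reprogramming factor, held 193, 199 and 199 in WT libraries and 279, 346 and 366 in DKO libraries (log2 fold change 0.73 ± 0.09, limma, adjusted p = 9.18e-08). Klf5, its relative, held 143, 134 and 127 in WT libraries and 219.6, 277 and 259 in DKO libraries (log2 fold change 0.89 ± 0.10, limma, adjusted p = 1.37e-08). All 3 factors also belong to the naive pluripotency network, and none had a DKO library within the WT range. The naive ESC markers, which were 1.62 times as high in DKO, moved with them.

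Junb, an AP-1 subunit, held 184, 178 and 169.6 normalized reads in WT libraries and 234, 267 and 343 in DKO libraries (log2 fold change 0.64 ± 0.10, SE, limma, adjusted p = 6.81e-06). DKO replicate 3 was the highest, and without it the log2 fold change was 0.49 and Junb was no longer called. Junb also overlaps Prdx2 by 351 bases. Bcl6, a transcriptional repressor, held 26.3, 26.2 and 21.3 in WT libraries and 36.6, 39.9 and 58.1 in DKO libraries (log2 fold change 0.82 ± 0.21, limma, adjusted p = 0.00165), on few reads. Myc, a growth regulator, was the only one called as lower, at 867, 766 and 810.2 in WT libraries and 535, 552 and 534 in DKO libraries (log2 fold change -0.59 ± 0.05, limma, adjusted p = 4.83e-10). Its WT and DKO values were well apart, but its fold change lay at the limit and was no longer called without WT replicate 1 (log2 fold change -0.54), without DKO replicate 1 (-0.58) or without DKO replicate 3 (-0.58). The other 5 of these genes (Pim2, Gbx2, Bcl3, Ier3 and Mcl1) were not called. Of them, Mcl1 was lower in every DKO library than in any WT library. Its mean went from 24811 to 19339 normalized reads (log2 fold change -0.36 ± 0.02, limma, adjusted p = 4.72e-13). On adjusted p alone 7 of the 11 Stat3-responsive genes passed, 5 higher and 2 lower, beside 53.4% of all genes.

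**Figure D4:**
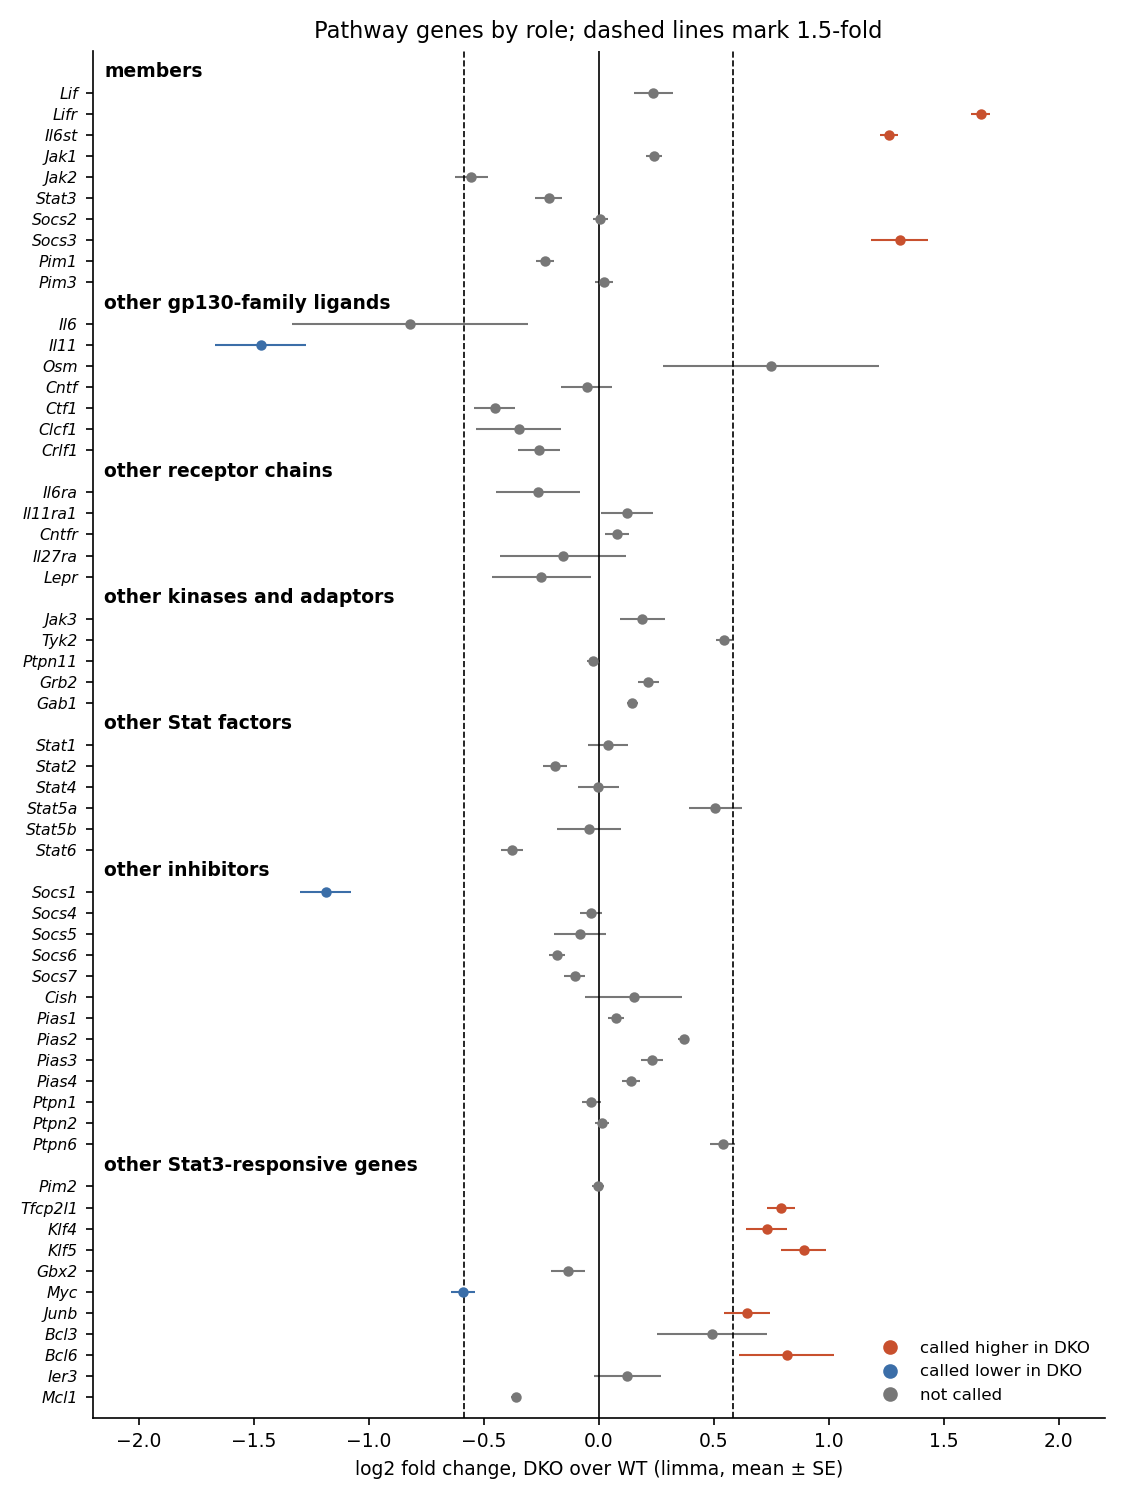
Log2 fold changes (DKO over WT, limma, with SE bars) of the 10 pathway genes (top group, headed members) and 47 tested genes of the wider pathway by role, with dashed lines at 1.5-fold and colour for genes called higher (orange), lower (blue) or not called (grey). Lifr and Il6st lie at log2 values of 1.66 and 1.26, and 5 of 11 other Stat3-responsive genes lie beyond the upper line.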

How the data were processed

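RNA-seq was available for 3 WT and 3 Smad2/3 DKO EpiLC libraries, grouped by the genotype in the labels. Before deposit, the authors filtered out rRNA reads (bowtie2), mapped to mm10 (STAR), dropped PCR duplicates (Samtools) and counted over refGene gene bodies, as the methods state. Versions were not given in the sources used here. The deposited signal was read as the count per entry divided by 1 size factor per library, not scaled for length. These factors (1.76 to 1.93) were inferred from the smallest step between values in each library. They may differ from the size factors of DESeq2, the tool named in the methods. The value of 1 read was taken to be that step, so the read numbers given rest on this inference. A second deposited table holds the authors' DESeq2 comparison (mean, log2 fold changes, SE, Wald statistic, p-values) and was not used.

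Reads were recovered by dividing by the value of 1 read, which gave whole numbers (within 0.1 read) for 100% of values. Of 33812 rows, 138 without a symbol (0.517% of reads) were left out. The highest-count row of each of 24288 symbols was kept. Genes passing filterByExpr (edgeR 4.0.16) on recovered reads were tested with limma 3.58.1 (R 4.3.3) with a mean-dependent trend on log2(signal + 1), a scale that understates changes of low genes. The count tests of edgeR and of DESeq2 1.42.0, other normalizations, pseudocounts of 0.1 and 10, no filter, a test against 1.5-fold, a replicate block and leaving out each library were alternatives. The fit was also run on simulated counts with far fewer changed genes than were called here, as a check of the code only.

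The 10 genes, the 48 further genes and the marker lists were chosen with earlier results of these data known, so counts over them are descriptions. Named genes are the 10, the called genes of the 48, and those not tested. Tyk2 and the receptor chains and Stat3-responsive genes not called were named in addition. Errors are those between libraries, and no use of molecular identifiers is stated.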

Additional observations from a re-analysis of the deposited data

How the results depend on the processing

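Of 170 values for the 10 genes (17 alternatives each), 161 kept their direction and side of the threshold, 6 crossed into a call, 3 changed direction and none lost a call. Calls for Lifr, Il6st and Socs3 held under all 17. Some of these could not move a fold change. No filter, a replicate block, a test against 1.5-fold and testing every row changed only the p-value. The limit on adjusted p alone reused the main fit and could not lose a call. With adjusted p alone as the limit, Lif (0.24), Jak1 (0.24), Jak2 (-0.55), Stat3 (-0.22) and Pim1 (-0.23) were also called, giving 8 of the 10 genes, 22 of the wider list in place of 8, and 9098 of all genes in place of 2623. A test against 1.5-fold itself called 4 of the wider list and 1115 genes in all, Lifr, Il6st and Socs3 still among them but Klf4, Myc, Junb and Bcl6 not. The 3 changes of direction were those of Socs2 without WT replicate 1, WT replicate 2 or DKO replicate 3 (lowest and highest value without 1 library -0.0084 and 0.029, against -0.60 and -0.52 for Jak2). With merged exons as the length, 8 neighbouring pairs of the WT level order did not overlap, in place of 5 with gene bodies. With a pseudocount of 10, 2096 genes and 7 of the wider list were called, Myc no longer among them. Counts by edgeR (2638) and DESeq2 (2475) were close to that of limma. Same-numbered differentiations did not deviate together (correlations 0.0088, -0.029 and 0.036 over 11930 genes), so no effect shared by number was seen. Whether same-numbered differentiations were run side by side cannot be told from these values. With a replicate block 3 of the 10 genes, 8 of the wider list and 2602 genes were called, and no call of the 10 changed. Pairs of libraries within a genotype differed by 3.20 to 5.08 times the sampling variance, so none looked like 1 library deposited again. Sequencing was paired-end, and the sources used here do not say whether both mates of a pair were counted. If they were, these ratios and the read numbers given are too high. Depth limits genes with few reads per library, such as Bcl6 (40 to 112) and Il11 (37 to 164).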
